A study of Mus musculus with 6 samples.

Results

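The genes described here encode the enzymes and carriers that activate fatty acids, bring them into the mitochondrion, degrade them in mitochondria and peroxisomes, and act on the ketone bodies acetoacetate and β-hydroxybutyrate. They were chosen by gene symbol from a list of acyl-CoA synthesis, carnitine shuttle, oxidation and ketogenesis genes. The rule uses no measured value, but the list was drawn up with earlier results of these data known. The list held 34 genes, each of which was found once among the 23282 genes of the count tables, and all 34 passed the filter on low counts that kept 14076 genes. Liver RNA was sequenced from 3 Alb-Cre;Tcf7l2 f/f mice (knockout) and 3 Tcf7l2 f/f mice (wild type), so that the comparison asks how loss of the transcription factor TCF7L2 from hepatocytes changes liver transcripts after refeeding. Both groups were mice of the strain C57BL/6 by the labels, given as C57BL/6N in the study's methods, and 12 weeks of age, which fasted for 24 h and were then refed normal chow for 24 h. Both groups carry Tcf7l2 alleles floxed at exon 5, and the wild-type mice lack Cre. In the knockout, Cre is driven by the albumin promoter and so acts in hepatocytes, while the other cells of the liver keep the gene. Each library was taken as 1 mouse. Libraries are named by their labels, with 7-2, 7-3 and 8-3 in the knockout and 7-2, 8-1 and 8-3 in the wild type, and values are given in that order within each group.

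A fatty acid that enters the hepatocyte is first joined to coenzyme A. Long chains then cross the mitochondrial membranes as carnitine esters, and the carnitine palmitoyltransferase of the outer membrane is the regulated gate, closed by malonyl-CoA in the fed state. In the matrix, each turn of the β-oxidation cycle has a dehydrogenation, a hydration, a second dehydrogenation and a thiolytic cleavage. Very long and branched chains begin this cycle in peroxisomes. Acetyl-CoA made in excess during fasting becomes acetoacetate and β-hydroxybutyrate, which other organs burn.

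The libraries held 60619938 to 133384586 counts, and a single gene of the list had between 426 and 54691 counts in a library. Levels are given as CPM, the count divided by the library size and put on a common scale, with library sizes scaled by trimmed mean of M values (TMM), with factors between 0.6277 and 1.397. The major urinary protein genes took 23.5% to 35.8% of the counts in knockout libraries and 38.9% to 64.4% in wild-type libraries. Tcf7l2 itself had 3.31, 2.74 and 3.33 CPM in knockout livers, against 4.88, 6.13 and 6.85 CPM in wild-type livers. The groups did not overlap, with a log2 fold change of −0.93 ± 0.19 (SE) that missed the threshold in edgeR (adjusted p = 0.0856) and passed it in DESeq2 (adjusted p = 0.00411). Of 10 pericentral Wnt target genes, 8 were called lower in the knockout by edgeR, against 0.377% of all genes. Among them was Glul, the glutamine synthetase of the last hepatocytes before the central vein. It had 47.1, 47.7 and 55.1 CPM in knockout livers and 343, 241 and 296 CPM in wild-type livers (adjusted p = 0.000257, edgeR). Oat, Slc1a2, Notum, Tcf7, Cyp2e1, Tbx3 and Lgr5 were the other 7, with log2 fold changes between −5.04 and −1.56. Axin2 was below 0 but missed the threshold (log2 fold change −1.98, adjusted p = 0.0654, edgeR). Rnf43 lay above 0 (log2 fold change 0.26, adjusted p = 0.799, edgeR).

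None of the 34 oxidation and ketogenesis genes passed an adjusted p of 0.05 in edgeR's quasi-likelihood test, with 0 higher and 0 lower in the knockout. Among all 14076 genes tested, 0.071% were called higher and 0.377% lower. DESeq2 also called 0 genes of the list in either direction, against 1.26% of genes called higher and 1.6% called lower, and limma-voom called 0 as well. At an unadjusted p under 0.05 in edgeR, 5 genes of the list were higher (14.7%, against 6.7% of all genes) and 2 were lower (5.88%, against 6.76%). The smallest adjusted p was 0.257, for Acad11. Fold changes between knockout and wild type lay between 0.709 for Acaa1a and 1.46 for Acsl1, and the SE of the log2 fold change lay between 0.14 and 0.40. The 95% confidence interval held 0 in 27 of the 34 genes. It lay wholly between −1 and 1 on the log2 scale in 32 of them.

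The signs of the estimates were uneven. The log2 fold change was above 0 in 26 of the 34 genes (76.5%, against 47.9% of all genes tested) and below 0 in 8, and its median was 0.088, against −0.017 over all genes tested. By ratios of mean CPM, the knockout libraries 7-2 and 7-3 against the wild-type library 7-2 gave 14 genes above 0. The median was −0.11 there, against 0.012 over all genes. The knockout library 8-3 against the wild-type libraries 8-1 and 8-3 gave 26 genes above 0 (median 0.25, against −0.034). The reason for this difference was not tested. In 7 genes every knockout library lay above every wild-type library (20.6%, against 10.2% of all genes), and in 0 genes did every knockout library lie below (9.08% of all genes). These 7 were Cpt1a, Acadl, Acads, Acad11, Hadhb, Etfdh and Acat1. In a bulk liver sample, a difference in the number of hepatocytes and a difference in RNA per hepatocyte cannot be told apart. The median of 6 hepatocyte markers, Alb among them, differed by −0.0078 on the log2 scale between the groups.

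**Figure D1:**
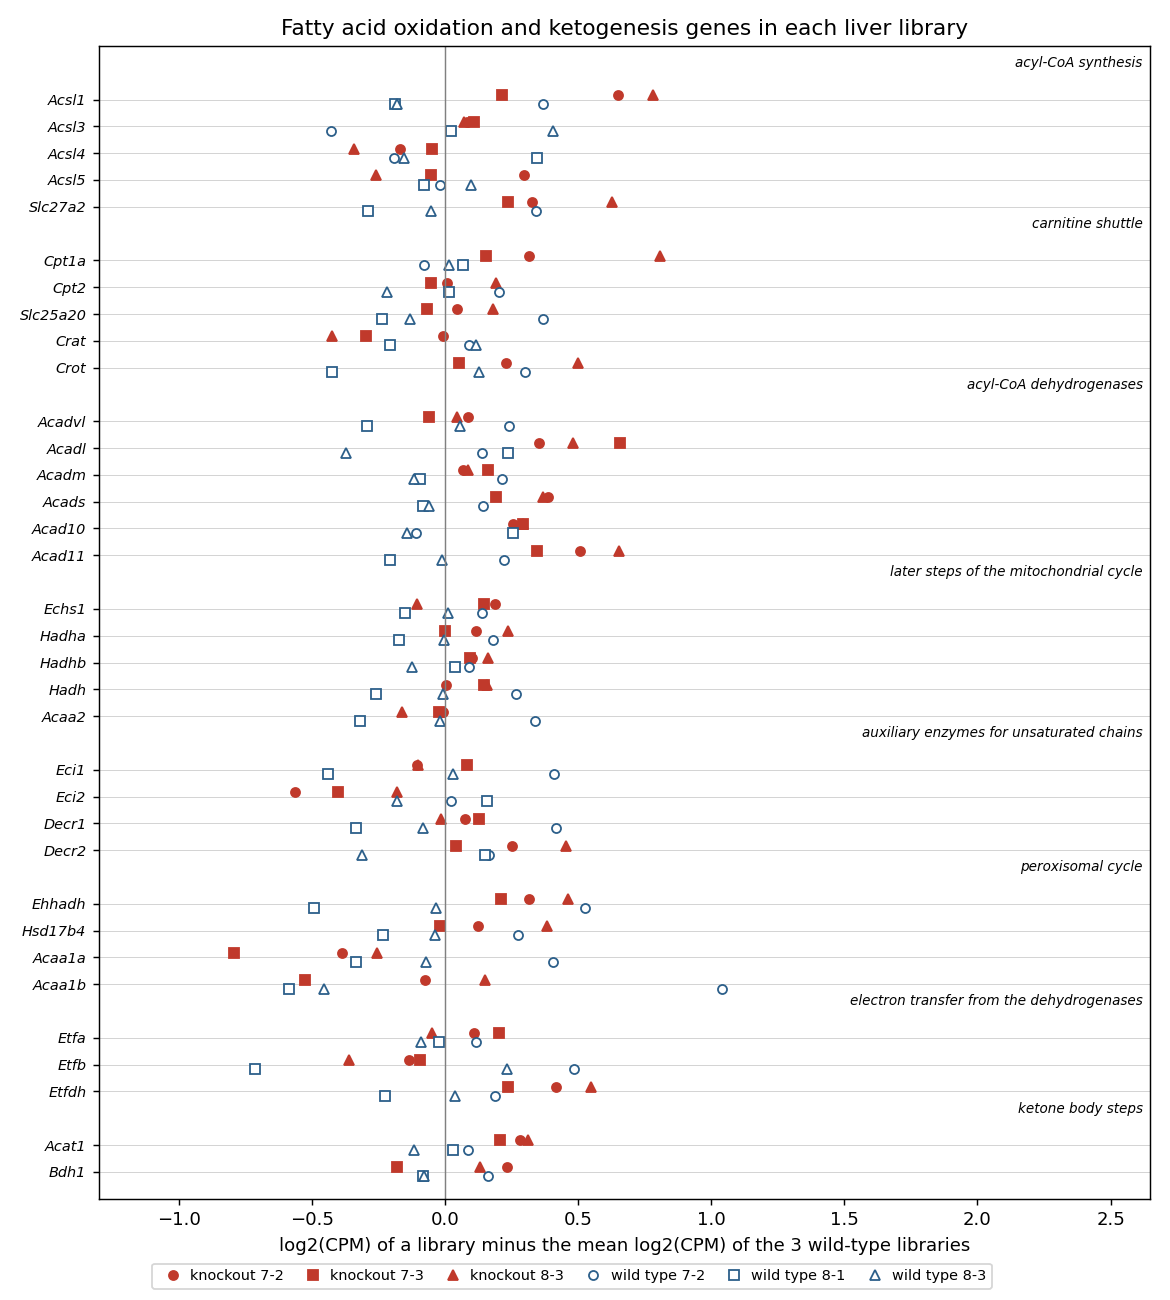
Level of each of the 34 genes in the 6 liver libraries, as log2(CPM) minus the mean log2(CPM) of the 3 wild-type libraries, with knockout libraries filled and above the open wild-type libraries of the same gene. Acad11, Acadl, Acads, Cpt1a, Etfdh, Acat1 and Hadhb are the genes whose knockout points all lie to the right of the wild-type points, and the wild-type library 7-2 lies far to the right in Acaa1b.

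Acyl-CoA synthesis, the activation of the fatty acid, was represented by 5 genes, of which 4 had log2 fold changes above 0 (median 0.046). Acsl1, the main long-chain acyl-CoA synthetase of liver, had 323, 239 and 354 CPM in knockout livers, against 266, 181 and 182 CPM in wild-type livers. The lowest knockout library lay below the highest wild-type library, so the groups overlapped. Its log2 fold change of 0.54 ± 0.22 (SE) was the largest of the list, with an unadjusted p of 0.0353 and an adjusted p of 0.336 by edgeR. Slc27a2, the very long-chain acyl-CoA synthetase and fatty acid transport protein of liver, had 515, 484 and 635 CPM in knockout livers, against 521, 336 and 396 CPM in wild-type livers. Only the wild-type library 7-2 reached the knockout range, and the log2 fold change was 0.38 ± 0.21 (adjusted p = 0.465, edgeR). Acsl5, a synthetase of the mitochondrial outer membrane and endoplasmic reticulum, had means of 287 ± 57.1 CPM in knockout and 284 ± 17.9 CPM in wild-type livers (SD, n = 3 each). Acsl3, a synthetase of lipid droplets and endoplasmic reticulum, ranged over 21.3 to 21.9 CPM in knockout livers and over 15.1 to 26.9 CPM in wild-type livers, so that the knockout values lay inside the wild-type range. Of its transcript, 9.44% of the 50-base stretches also occur in Utp14b. Acsl4, which prefers arachidonate, had a log2 fold change of −0.20 ± 0.18, with the wild-type library 8-1 at 61.5 CPM above the other 5 libraries.

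The carnitine shuttle moves activated chains into the matrix, and Cpt1a, the liver form of carnitine palmitoyltransferase at the outer membrane, is its regulated entry. Cpt1a (chr19:3322326-3385735, mm10) had 108, 96.5 and 152 CPM in knockout livers, against 82.1, 90.9 and 87.6 CPM in wild-type livers. Every knockout library was above every wild-type library, but the knockout library 8-3 stood well above the other knockout libraries and the lowest knockout library was close to the highest wild-type library. The log2 fold change was 0.45 ± 0.19 (95% interval 0.022 to 0.88), with an unadjusted p of 0.0412 and an adjusted p of 0.349 in edgeR. It ranged from 0.23 to 0.58 when each library was left out in turn, and the unadjusted p stayed under 0.05 in the fit without the knockout library 7-3 but not in the other 5 fits.

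The estimates for the next proteins of the shuttle lay near 0, and their difference from Cpt1a was not tested. Slc25a20, the carnitine-acylcarnitine translocase of the inner membrane, had a log2 fold change of 0.034 ± 0.18, and Cpt2, the palmitoyltransferase on the matrix side, one of 0.042 ± 0.16. Both ranges overlapped, with Cpt2 at 38.7 to 45.8 CPM in knockout and 34.5 to 46.2 CPM in wild-type livers. Crat, the short-chain carnitine acetyltransferase, was at 5.14 to 6.85 CPM in knockout livers and at 5.98 to 7.48 CPM in wild-type livers (log2 fold change −0.24 ± 0.17). Crot, the carnitine octanoyltransferase that exports shortened chains from peroxisomes, had 192, 170 and 232 CPM in knockout livers and 202, 122 and 179 CPM in wild-type livers. The wild-type library 8-1 was the lowest and the groups overlapped (log2 fold change 0.24 ± 0.22). The median of the 5 shuttle genes was 0.042, and it became 0.25 without the wild-type library 7-2, −0.032 without the knockout library 8-3 and −0.04 without the wild-type library 8-3.

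The acyl-CoA dehydrogenases, flavoproteins that begin each turn of the cycle, were the step with the highest median log2 fold change, 0.29, and all 6 lay above 0. The median stayed between 0.24 and 0.34 when each library was left out in turn. The step median in each library, taken relative to the wild-type mean, was 0.30, 0.24 and 0.33 in knockout libraries, against 0.18, −0.093 and −0.088 in wild-type libraries. Of the 8 steps, this one, acyl-CoA synthesis and no other had every knockout library above every wild-type library. The nearest pair for the dehydrogenases was the knockout library 7-3 and the wild-type library 7-2.

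Acad11, a dehydrogenase of long acyl chains that also takes part in breakdown of hydroxylated fatty acids, had 149, 133 and 165 CPM in knockout livers, against 122, 90.7 and 104 CPM in wild-type livers. The groups did not overlap, and the lowest knockout library exceeded the highest wild-type library. Its log2 fold change of 0.50 ± 0.17 had the smallest p of the list (unadjusted p = 0.0161, adjusted p = 0.257 in edgeR and 0.105 in DESeq2). Leaving out each library in turn gave 0.41 to 0.62. Acadl, the long-chain dehydrogenase, had 153, 189 and 167 CPM in knockout livers, against 132, 141 and 92.5 CPM in wild-type livers. The groups did not overlap, and the wild-type library 8-3 lay well below the other wild-type libraries (log2 fold change 0.47 ± 0.20, unadjusted p = 0.0361, adjusted p = 0.337, edgeR). Acads, the short-chain dehydrogenase, had 38.0, 33.2 and 37.5 CPM in knockout livers, against 32.1, 27.4 and 27.9 CPM in wild-type livers. The groups were again separate, by the gap between the knockout library 7-3 and the wild-type library 7-2 (log2 fold change 0.31 ± 0.14, unadjusted p = 0.0507, adjusted p = 0.373, edgeR).

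The other dehydrogenases differed less. Acad10, a relative of Acad11, was at 9.47 to 9.72 CPM in knockout livers and at 7.17 to 9.47 CPM in wild-type livers, with the wild-type library 8-1 reaching the lowest knockout library (log2 fold change 0.27 ± 0.16). Of its 50-base stretches, 20.7% also occur in Acad12. Acadm, the medium-chain dehydrogenase, had means of 154 ± 5.33 CPM in knockout and 144 ± 19.2 CPM in wild-type livers. Acadvl, the very long-chain dehydrogenase of the inner membrane, had means of 178 ± 8.99 CPM in knockout and 177 ± 32.1 CPM in wild-type livers (log2 fold change 0.01 ± 0.18, SD and SE over n = 3 each).

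**Figure D2:**
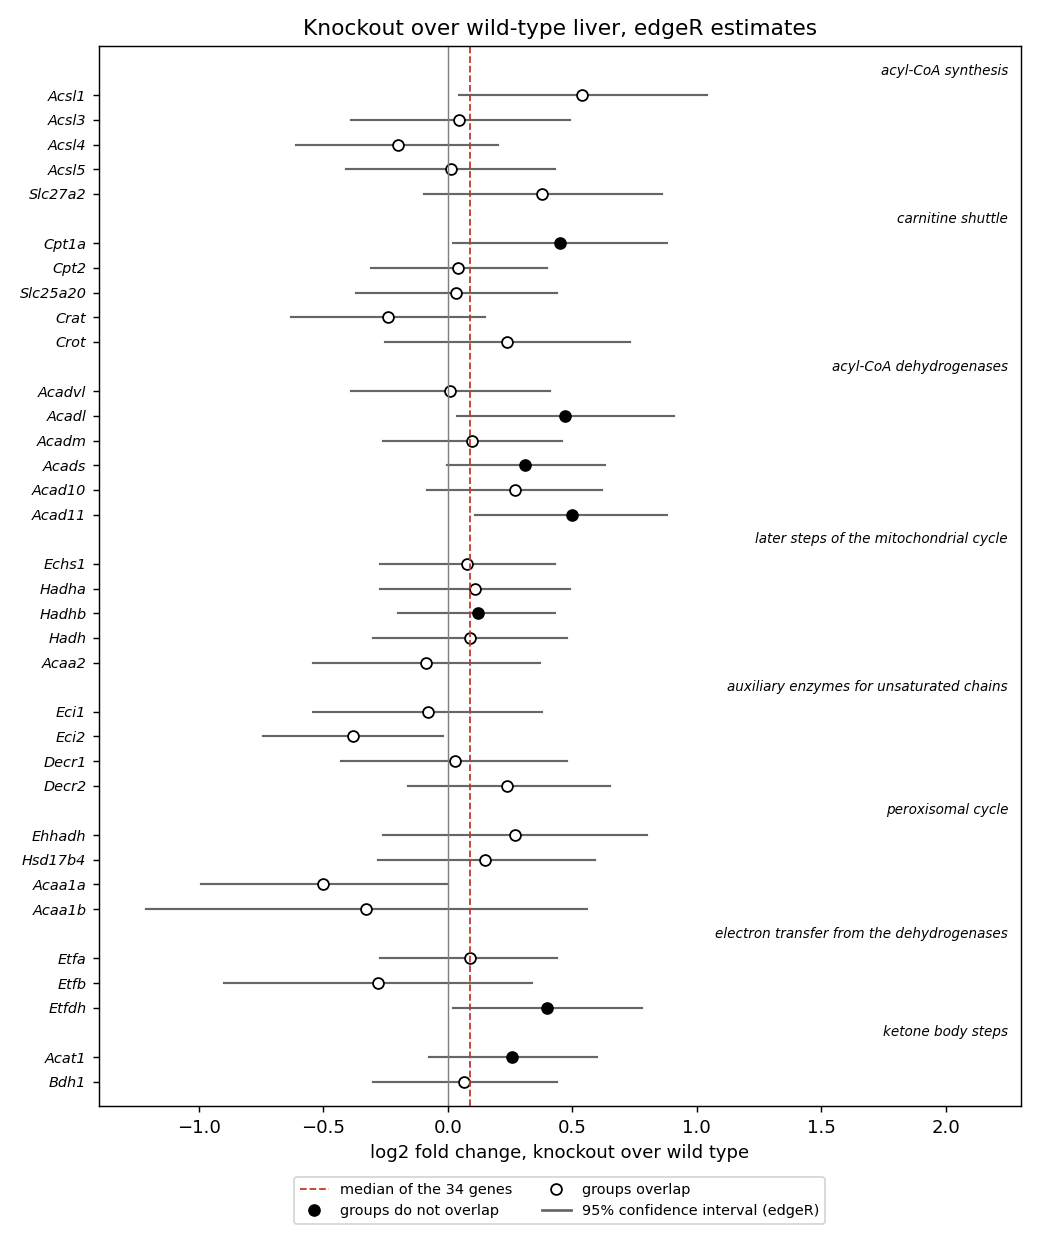
Log2 fold change of each gene, knockout over wild type, with its 95% confidence interval from edgeR. Filled points are the 7 genes whose groups do not overlap, all to the right of 0, and the dashed line is the median of the 34 genes at 0.088. All 6 acyl-CoA dehydrogenases lie to the right of 0, and Acaa1b has the widest interval, from −1.21 to 0.56.

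The later steps of the mitochondrial cycle lay close together, with log2 fold changes between −0.088 and 0.12 (median 0.088). Hadha and Hadhb encode the α and β subunits of the trifunctional protein of the inner membrane, which carries out the last reactions of the cycle on long chains. Their genes lie head to head on chromosome 5, Hadha on the minus strand (chr5:30119423-30154980) and Hadhb on the plus strand (chr5:30155253-30184593), with 272 bases between the annotated starts. Hadhb is therefore shown with the part of its promoter window that also belongs to the window of Hadha in capitals. The window covers 250 bases before the start and 50 from it, in RefSeq coordinates of GRCm38.p6 (chr5:30155003-30155302, plus strand), and the 228 capital bases lie in both windows.
Hadhb window: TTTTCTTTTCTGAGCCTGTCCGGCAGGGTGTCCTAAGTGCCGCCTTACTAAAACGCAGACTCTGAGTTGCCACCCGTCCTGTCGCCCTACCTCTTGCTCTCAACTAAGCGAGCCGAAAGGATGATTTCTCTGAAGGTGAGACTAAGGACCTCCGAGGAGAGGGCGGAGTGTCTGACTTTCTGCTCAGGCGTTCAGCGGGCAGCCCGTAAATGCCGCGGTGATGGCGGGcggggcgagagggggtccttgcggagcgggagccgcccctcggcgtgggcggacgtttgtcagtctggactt

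Hadha had 265, 245 and 288 CPM in knockout livers, against 277, 217 and 244 CPM in wild-type livers. The ranges overlapped, and the log2 fold change was 0.11 ± 0.17 (adjusted p = 0.807, edgeR). Hadhb had 57.6, 57.3 and 60.0 CPM in knockout livers, against 57.1, 55.1 and 49.2 CPM in wild-type livers. Every knockout library was above every wild-type library, but by less than 1 CPM at the nearest pair, and the log2 fold change was 0.12 ± 0.14 (adjusted p = 0.747, edgeR). Of its 50-base stretches, 16.8% also occur in its pseudogene Hadhb-ps. Hadha and Hadhb had nearly equal estimates, neither of them past the test, and a link to the shared window was not tested. Echs1, the short-chain enoyl-CoA hydratase, had a log2 fold change of 0.076 ± 0.16, and Hadh, the short-chain hydroxyacyl-CoA dehydrogenase, one of 0.088 ± 0.18. Acaa2, the thiolase that ends the cycle in the matrix, had 373 to 415 CPM in knockout livers, inside the wild-type range of 334 to 527 CPM, and a log2 fold change of −0.088 ± 0.20.

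Auxiliary enzymes move or remove double bonds so that unsaturated chains can enter the cycle, and their median log2 fold change was −0.025 over 4 genes. Eci2, an enoyl-CoA isomerase of peroxisomes and mitochondria, had 33.7, 37.7 and 44.0 CPM in knockout livers, against 50.6, 55.6 and 44.0 CPM in wild-type livers. The knockout and wild-type libraries labelled 8-3 met at the same level, and the other knockout libraries lay below the other wild-type libraries. The log2 fold change was −0.38 ± 0.16 (unadjusted p = 0.041, adjusted p = 0.349, edgeR), and every fit with a library left out kept it below 0, between −0.49 and −0.29. Of its 50-base stretches, 7.13% also occur in Eci3. Eci1, the mitochondrial isomerase, had a log2 fold change of −0.080 ± 0.21. Its range was 51.9 to 59.1 CPM in knockout livers and 41.2 to 74.2 CPM in wild-type livers. Decr1, the mitochondrial dienoyl-CoA reductase, differed by 0.029 ± 0.20, and Decr2, its peroxisomal counterpart, by 0.24 ± 0.18 on the log2 scale. The median of the step was 0.21 without the wild-type library 7-2, 0.0078 without the knockout library 8-3 and −0.19 without the wild-type library 8-1.

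The peroxisomal cycle had a median log2 fold change of −0.086 over 4 genes, which split evenly between values above and below 0. Acaa1a and Acaa1b encode peroxisomal thiolases. Acaa1a had 66.3, 50.1 and 72.6 CPM in knockout livers, against 115, 68.8 and 82.6 CPM in wild-type livers. The knockout libraries 7-2 and 7-3 lay below every wild-type library, and the knockout library 8-3 lay between the wild-type libraries 8-1 and 8-3. The log2 fold change of −0.50 ± 0.22 was the lowest of the list (unadjusted p = 0.0487, adjusted p = 0.368, edgeR). Acaa1b had 119, 87.0 and 139 CPM in knockout livers, against 258, 83.5 and 91.6 CPM in wild-type livers. The wild-type library 7-2 was far above all other libraries, and the remaining wild-type libraries lay near the low end of the knockout range. Its log2 fold change was −0.33 ± 0.40 with all libraries and 0.40 without the wild-type library 7-2, so its direction rested on that library.

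Reads with several alignments were counted, and the 2 thiolase genes are near copies on chromosome 9, so the division of reads between them is uncertain. Their coding sequences in the GENCODE vM39 annotation are both 1275 bases long and identical at 1231 positions (96.5%), with an unbroken identical stretch of 327 bases. Of the 50-base windows of the coding sequence, 38.1% are the same in both genes. The stretch with the highest number of differences, bases 259 to 318 of the coding sequence, is given to show how the genes can be told apart, with the 11 differing bases in capitals.
Acaa1a: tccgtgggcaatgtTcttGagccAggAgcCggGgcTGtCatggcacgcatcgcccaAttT
Acaa1b: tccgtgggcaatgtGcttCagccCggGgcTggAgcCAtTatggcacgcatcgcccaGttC

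Both thiolases were highest in the wild-type library 7-2, and both had their lowest knockout value in the knockout library 7-3. The same held for Ehhadh, the peroxisomal bifunctional enzyme, which had 88.9, 82.7 and 98.6 CPM in knockout livers, against 103, 50.8 and 69.9 CPM in wild-type livers. The knockout libraries lay inside the wild-type range, and the log2 fold change was 0.27 ± 0.24 (adjusted p = 0.64, edgeR). Hsd17b4, the other bifunctional enzyme, which handles branched chains, had means of 249 ± 35.8 CPM in knockout and 223 ± 40.4 CPM in wild-type livers (SD, n = 3 each). The median of the step was 0.35 without the wild-type library 7-2, 0.042 without the knockout library 7-3 and −0.27 without the wild-type library 8-1. It was −0.22 without the knockout library 8-3 and −0.21 without the wild-type library 8-3.

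**Figure D3:**
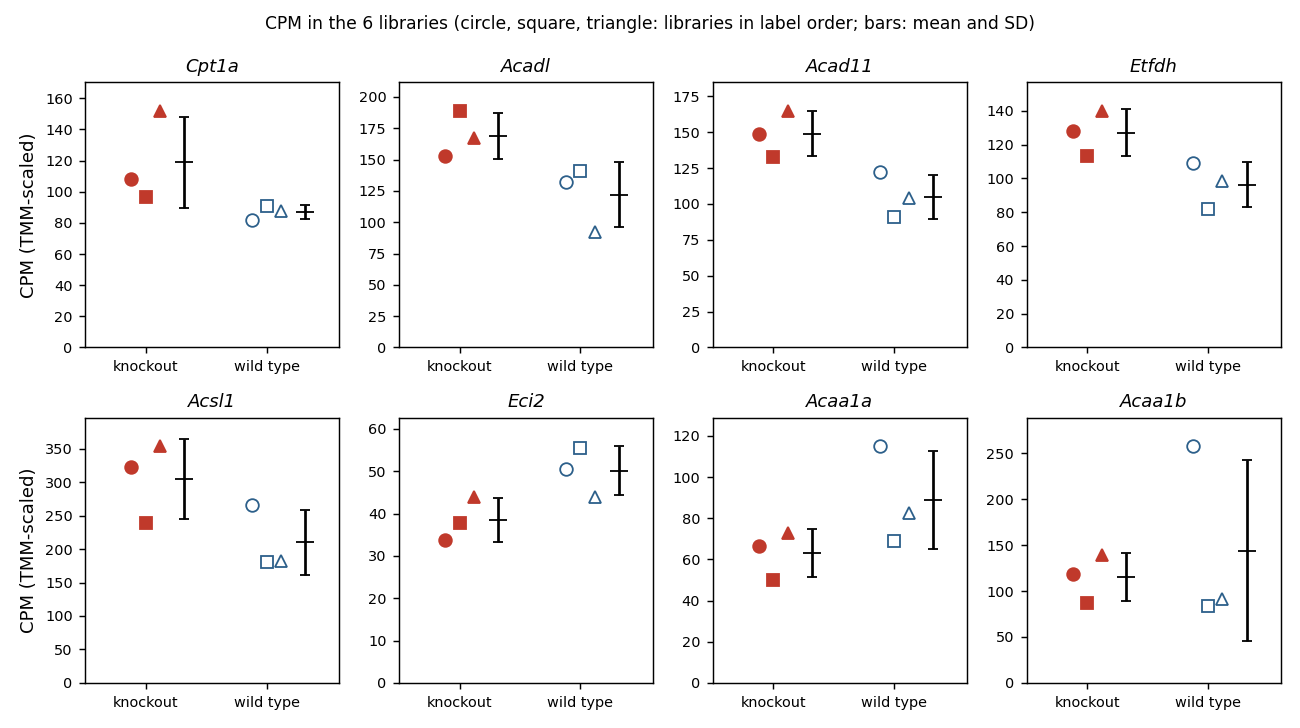
CPM of 8 genes in the 3 knockout libraries (filled, left) and the 3 wild-type libraries (open, right) on axes that start at 0, with the mean and SD of each group beside the points. Cpt1a, Acadl, Acad11 and Etfdh have no overlap between groups, Acsl1, Eci2 and Acaa1a overlap, and the wild-type library 7-2 stands alone at 258 CPM in Acaa1b.

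Electrons from the dehydrogenases pass through the electron transfer flavoprotein to its ubiquinone oxidoreductase. Etfdh, the oxidoreductase, had 128, 113 and 140 CPM in knockout livers, against 109, 82.0 and 98.4 CPM in wild-type livers. The groups did not overlap, with the knockout library 7-3 and the wild-type library 7-2 nearest to each other. The log2 fold change was 0.40 ± 0.17 (95% interval 0.02 to 0.78, unadjusted p = 0.0408, adjusted p = 0.349, edgeR), and 0.30 to 0.50 with each library left out in turn. The 2 subunits of the flavoprotein itself differed from each other in estimate. Etfa, the α subunit, had means of 191 ± 16.9 CPM in knockout and 179 ± 13.1 CPM in wild-type livers (log2 fold change 0.088 ± 0.16). Etfb, the β subunit, had 300, 309 and 257 CPM in knockout livers, against 461, 201 and 387 CPM in wild-type livers. The wild-type libraries spanned both ends and the knockout libraries lay inside them (log2 fold change −0.28 ± 0.28, adjusted p = 0.681, edgeR). In GENCODE vM39 transcripts, 56.8% of the 50-base stretches of Etfb also occur in Etfbl, so part of its count may belong there.

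Of the ketone body steps, Acat1, the mitochondrial acetoacetyl-CoA thiolase, had 183, 174 and 187 CPM in knockout livers, against 160, 154 and 139 CPM in wild-type livers. Every knockout library lay above every wild-type library. The log2 fold change was 0.26 ± 0.15 (unadjusted p = 0.114, adjusted p = 0.479, edgeR) and stayed between 0.20 and 0.31 with each library left out. Bdh1, the β-hydroxybutyrate dehydrogenase of the inner membrane, had 92.2, 69.3 and 85.9 CPM in knockout livers, against 87.8, 74.2 and 74.3 CPM in wild-type livers. The wild-type libraries lay inside the knockout range, and the log2 fold change was 0.066 ± 0.17 (adjusted p = 0.896, edgeR).

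The spread between mice of one group was compared next. The ratio of the highest to the lowest library had a median of 1.21 in the knockout and 1.41 in the wild type over the 34 genes. It exceeded 1.5 in 2 genes in the knockout and in 12 genes in the wild type. The gene with the largest ratio was Acaa1b in both groups, at 1.6 in the knockout and 3.09 in the wild type. The wild-type library 7-2 was the highest of its group in 26 of the 34 genes, against 33.8% of all genes tested, and the wild-type library 8-1 was the lowest of its group in 22, against 36.2% of all genes. In the knockout, the library 8-3 was the highest of its group in 18 genes (29.7% of all genes) and the library 7-3 the lowest in 19 (35.8% of all genes).

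**Figure D4:**
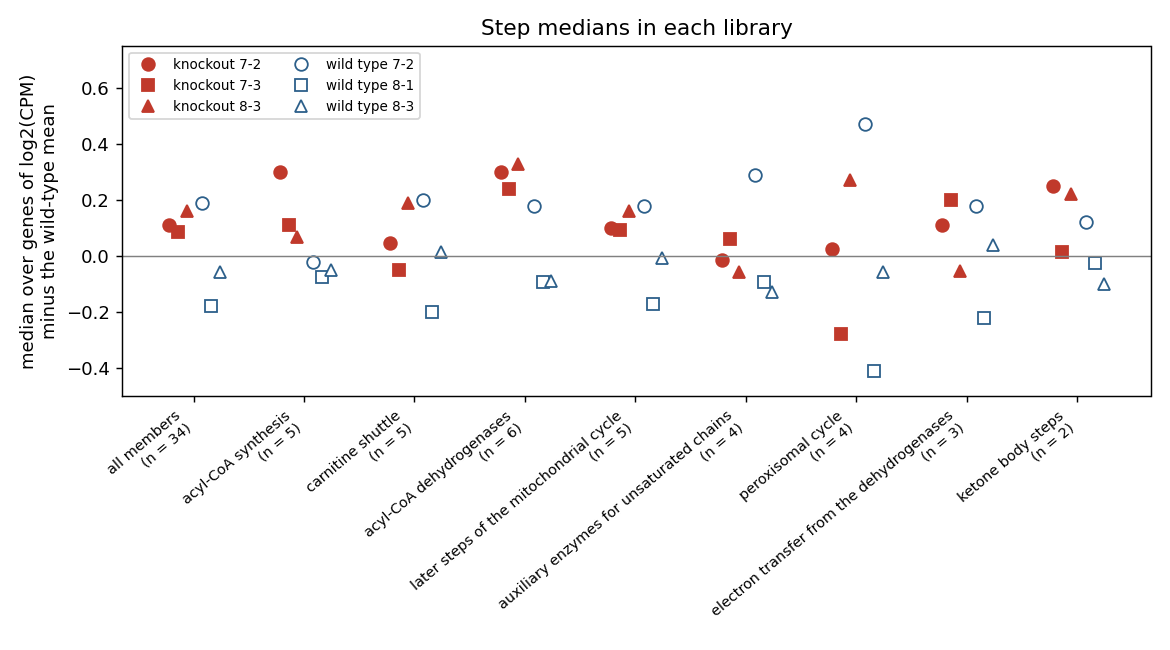
Median over the genes of each step of log2(CPM) minus the wild-type mean, in each library, with knockout libraries filled and left of the open wild-type libraries. The wild-type library 7-2 is the highest of its group over the whole list, at 0.19, and in the peroxisomal cycle, at 0.47, while the dehydrogenase medians of the knockout libraries lie between 0.24 and 0.33.

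Over all 34 genes, the median deviation from the wild-type mean was 0.11, 0.087 and 0.16 in knockout libraries, against 0.19, −0.18 and −0.056 in wild-type libraries, so the groups overlapped through that library. Without it, the median log2 fold change of the list was 0.21, with 28 genes above 0. The groups then did not overlap in 16 of the 34 genes, all higher in the knockout, against 15.2% of all genes higher. The library left out was the highest wild-type library in 26 of the 34 genes, so its removal by itself favours such separation. In that fit 7 genes were higher at an unadjusted p under 0.05 (6.17% of all genes) and 0 lower (6.39%), with 0 past an adjusted p of 0.05 in edgeR. Without the wild-type library 8-1 the median was 0.049, with 21 genes above 0. At an unadjusted p under 0.05, 3 genes were then higher (8.7% of all genes) and 2 lower, Acaa1a and Etfb (8.25%), and the groups were separate in 8 higher genes (18.3%) and 3 lower genes (18.7%). Without the wild-type library 8-3, 0 genes of the list were higher at that level (4.74% of all genes) and 1 was lower, Eci2 (4.65%). Without the knockout library 8-3, 0 were higher (4.53%) and 2 were lower, Acaa1a and Eci2 (4.16%). Without the knockout library 7-2, 2 were higher, Acad11 and Acadl (5.65%), and 0 lower (6.14%). Without the knockout library 7-3, 5 were higher, Acad11, Acads, Acsl1, Cpt1a and Etfdh (5.49%), and 0 lower (7.09%). Separate groups numbered 8 higher (15.2% of all genes) and 1 lower (14.6%) without the knockout library 7-2. They numbered 9 (15.8%) and 0 (15.6%) without the knockout library 7-3, and 8 (13.3%) and 2 (12.2%) without the knockout library 8-3. Leaving out the wild-type library 8-3 gave 8 higher (13.9%) and 1 lower (12.4%).

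The estimates were also compared under another scaling. With library sizes alone in place of TMM factors, the median log2 fold change of all genes tested was 0.61 and that of the list was 0.70. On that scale 7 genes of the list were called higher by edgeR, against 20.9% of all genes, and 0 were called lower, against 0.625% of all genes. The 7 were Acsl1, Cpt1a, Acadl, Acads, Acad10, Acad11 and Etfdh, with log2 fold changes between 0.92 and 1.14.

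The pathway has other genes beyond the list. Among 47 further enzymes and carriers of fatty acid oxidation and ketogenesis that could be tested, the median log2 fold change was 0.053, and 0 were called in either direction by edgeR, and the unadjusted p was under 0.05 in 6 that were higher (6.7% of all genes) and 6 that were lower (6.76%). DESeq2 called 2 of them higher (1.26% of all genes) and 2 lower (1.6%). The genes called lower were Hsd17b10 and Acot1. Acot1 was near the floor, with 0.378, 0.079 and 0.476 CPM in knockout livers, against 2.47, 0.514 and 0.897 CPM in wild-type livers. Its log2 fold change was −2.03 ± 0.68 (adjusted p = 0.247 in edgeR and 0.0365 in DESeq2). Hsd17b10, a mitochondrial hydroxyacyl-CoA dehydrogenase that is also a subunit of mitochondrial RNase P, had 39.0, 48.0 and 34.1 CPM in knockout livers, against 78.8, 63.4 and 85.1 CPM in wild-type livers. The groups lay far apart, with a log2 fold change of −0.91 ± 0.18 (adjusted p = 0.0856 in edgeR and 0.000514 in DESeq2), larger in size than that of any gene of the list. Bdh2, a cytosolic dehydrogenase, had 14.9, 12.9 and 12.0 CPM in knockout livers, against 9.45, 5.83 and 7.00 CPM in wild-type livers, and Abcd3, a peroxisomal membrane transporter of acyl-CoA, had 448, 385 and 445 CPM in knockout livers, against 338, 202 and 241 CPM in wild-type livers. Both were separate between groups and missed edgeR's threshold (adjusted p = 0.119 for Bdh2 and 0.204 for Abcd3), and both passed in DESeq2 (adjusted p = 0.00949 for Bdh2 and 0.0254 for Abcd3). Acadsb, the dehydrogenase of branched short chains, had 66.0, 63.7 and 66.2 CPM in knockout livers, against 49.7, 47.7 and 48.8 CPM in wild-type livers, tight within both groups (adjusted p = 0.221, edgeR).

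Of 16 genes that control entry or transcription of the pathway, 0 were called by edgeR (median log2 fold change 0.11), and the unadjusted p was under 0.05 for 2 that were higher (6.7% of all genes) and 1 that was lower (6.76%). DESeq2 called 1 of them higher, Acaca (1.26% of all genes), and 0 lower (1.6%). Acaca and Acacb encode the acetyl-CoA carboxylases, whose product malonyl-CoA inhibits Cpt1a. They were the 2 of the 16 with every knockout library above every wild-type library (10.2% of all genes). In 0 of the 16 did every knockout library lie below (9.08% of all genes). Acaca had 109, 105 and 77.5 CPM in knockout livers, against 73.5, 56.1 and 53.3 CPM in wild-type livers (log2 fold change 0.67, adjusted p = 0.185 in edgeR and 0.0311 in DESeq2). Acacb had 163, 115 and 85.3 CPM in knockout livers, against 58.2, 84.9 and 80.9 CPM in wild-type livers (log2 fold change 0.70, adjusted p = 0.265, edgeR). Pdk4, the kinase that shuts off pyruvate dehydrogenase in fasting, had 1.70, 1.42 and 1.33 CPM in knockout livers, against 3.54, 1.43 and 3.37 CPM in wild-type livers, with the wild-type library 8-1 inside the knockout range (adjusted p = 0.285, edgeR). Esrra, a nuclear receptor that drives oxidative genes, differed by 0.48 on the log2 scale (adjusted p = 0.393, edgeR). Ppara, the nuclear receptor that induces much of the pathway in fasting, had 51.0, 48.0 and 75.9 CPM in knockout livers, against 45.0, 50.8 and 53.1 CPM in wild-type livers, and its highest value fell in the same knockout library as that of Cpt1a.

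No marker of another liver cell type was called by edgeR, and the marker lists lay on both sides of 0. All 8 sinusoidal endothelial markers had log2 fold changes above 0, against 47.9% of all genes (median 0.36, smallest adjusted p = 0.243), with summed levels of 77.3 to 80.5 CPM in knockout and 59.7 to 67.4 CPM in wild-type livers. Of 8 stellate markers, 6 lay above 0, against 47.9% of all genes (median 0.50, smallest adjusted p = 0.0927 by edgeR). Col1a1 (−0.22) and Des (−0.09) lay below 0. DESeq2 called 2 of the 8 higher (1.26% of all genes), Dcn and Reln. The stellate sums were 91.8 to 95.5 CPM in knockout and 57.9 to 71.2 CPM in wild-type livers. Dcn alone had means of 31.2 CPM in knockout and 15.8 CPM in wild-type livers. The sums of these 2 lists did not overlap between the groups. Below 0 lay 5 of 6 Kupffer cell and macrophage markers (median −0.17), with sums of 53.0 to 70.3 CPM in knockout and 67.3 to 81.0 CPM in wild-type livers. So did 4 of 5 cholangiocyte markers (median −0.49), with sums of 27.8 to 33.7 CPM in knockout and 29.4 to 52.8 CPM in wild-type livers, and 4 of 5 red cell markers (median −0.42), with sums of 345 to 411 CPM in knockout and 359 to 647 CPM in wild-type livers. These 3 sums overlapped between the groups. The part of these cells in the levels of the 34 genes was not tested. The defining adipocyte markers Adipoq, Lep, Plin1 and Retn were at or near 0 in every library and did not pass the filter.

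Promoter windows were given by RefSeq for 29 of the 34 genes (31 windows), the others being Hsd17b4, Decr1, Acat1, Acaa2 and Crat. The direct repeat AGGTCANAGGTCA, the element of PPARα with its partner RXR, was searched on both strands with up to 1 mismatch outside the spacer base. It was found in 0 of the 31 windows and in 0.554% of all 32851 windows. At so low a share, 0 was the likely count among 31 windows, so no conclusion is drawn from it. Each window covers 250 bases before an annotated start and 50 from it, and sites elsewhere were not searched. The TCF motif CTTTGAT was found in 0 windows of the list (3.73% of all windows), and the related CTTTGTT in 1 (3.23%, against 5.85% of all windows). That window belongs to Bdh1 (chr16:31422047-31422346, plus strand, GRCm38.p6), where the motif is on the minus strand, 62 bases before the annotated start. It is shown with the motif in capitals as it reads on the plus strand.
Bdh1 window: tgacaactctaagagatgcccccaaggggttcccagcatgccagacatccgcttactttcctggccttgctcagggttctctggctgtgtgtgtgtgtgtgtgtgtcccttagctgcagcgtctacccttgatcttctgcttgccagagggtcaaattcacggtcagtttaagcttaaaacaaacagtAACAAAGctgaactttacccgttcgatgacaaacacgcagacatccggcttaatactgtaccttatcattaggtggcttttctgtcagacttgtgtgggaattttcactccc
A match is a description of these letters, and Bdh1 was among the genes with the smallest differences between the groups.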

How the data were processed

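Liver RNA of 3 knockout and 3 wild-type mice was sequenced with a strand-directional mRNA kit. The authors deposited whole-number read counts of each gene, which Bedtools coverage took from reads with one or several alignments to mm10. TopHat is named in the submitters' processing notes, its version and the annotation being not given in the sources used here. Quantile normalisation, which the authors applied later, is not in the deposited counts.

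Knockout was compared with wild type with no further term in edgeR 4.0.16 (quasi-likelihood test, R 4.3.3 and limma 3.58.1), with TMM factors, the default filterByExpr limits (a min.count of 10 and a min.total.count of 15) and Benjamini-Hochberg adjustment over 14076 genes, called under 0.05. The biological coefficient of variation was 23.9%. The fit was checked on simulated counts. Alternatives were DESeq2 1.42.0, limma-voom, quantile-normalised values, other scaling factors and filters, replicate blocks and each library left out in turn. The count of genes with separate groups when a library is left out was added after the data were seen. P-values set the difference between the groups against the spread between libraries within a group, each taken as 1 mouse. The estimate of that spread for a gene also draws on the other genes.

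The 34 genes and the other lists were chosen with earlier results of these data known. All 34 genes are named. Given in every library are those whose groups do not overlap, those with an unadjusted p under 0.05, Cpt1a, Hadha, Hadhb, Acat1, Bdh1 and the 2 largest fold changes each way. Slc27a2, Crot, Ehhadh, Acaa1b, Etfb, Ppara and Acot1 were added after their values were seen. Beside them stand Tcf7l2, called genes of the other lists, and up to 4 genes with the smallest p of the other enzymes and of the control genes. Levels were not compared between genes, since exon lengths of the mm10 annotation were not used here, and protein sequences were not analysed here. Shared stretches of 50 bases were counted in GENCODE vM39 transcripts, the longest protein-coding transcript standing for each gene. Promoter windows and coordinates are from RefSeq on GRCm38.p6.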

Additional observations from a re-analysis of the deposited data

How the results depend on the processing

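Of 578 comparisons of a single gene of the list under an alternative, 531 kept the direction and the side of the threshold, 40 changed direction and 7 passed the threshold, all of the last with library sizes alone. The count of called genes of the list stayed at 0 in each direction under every alternative except library sizes alone, which called 7 higher. The values of those genes were 1.14 for Acsl1, 1.09 for Cpt1a, 1.1 for Acadl, 0.93 for Acads, 0.92 for Acad10, 1.1 for Acad11 and 1.0 for Etfdh.

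Among all genes, the 10 called higher became 190 with DESeq2, 6 with limma-voom, 4 with quantile-normalised values, 2936 with library sizes alone, 23 with no filter on low counts and 3 to 18 with each library left out. The 53 called lower became 241 with DESeq2, 27 with quantile-normalised values, 88 with library sizes alone and 21 to 69 with each library left out.

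With library sizes alone, the median log2 fold change was 0.70 for all 34 genes, 0.69 for acyl-CoA synthesis, 0.66 for the carnitine shuttle, 0.93 for the dehydrogenases, 0.68 for the later mitochondrial steps, 0.54 for the auxiliary enzymes, 0.47 for the peroxisomal cycle, 0.70 for electron transfer and 0.79 for the ketone body steps. The 8 genes below 0 turned positive on that scale, at 0.46 for Acsl4, 0.38 for Crat, 0.49 for Acaa2, 0.48 for Eci1, 0.25 for Eci2, 0.09 for Acaa1a, 0.20 for Acaa1b and 0.27 for Etfb, and the median of all genes moved by the same construction. With each library left out in turn, the median ranged from 0.0033 to 0.27 for acyl-CoA synthesis, from −0.04 to 0.25 for the carnitine shuttle, from −0.19 to 0.21 for the auxiliary enzymes and from −0.27 to 0.35 for the peroxisomal cycle. Single genes that changed direction when a library was left out ranged from −0.14 to 0.27 for Acsl3, from −0.15 to 0.13 for Acsl5, from −0.064 to 0.15 for Cpt2, from −0.074 to 0.25 for Slc25a20, from −0.12 to 0.14 for Acadvl, from −0.027 to 0.24 for Hadh, from −0.23 to 0.10 for Acaa2, from −0.26 to 0.15 for Eci1, from −0.12 to 0.27 for Decr1, from −0.60 to 0.40 for Acaa1b and from −0.022 to 0.18 for Bdh1. Acsl5 was −0.0057 with limma-voom and Acaa2 0.027 with quantile-normalised values, and the cause was not tested.

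The libraries share the label numbers 7-2 and 8-3 only, and libraries with the same number correlated at 0.0989 and −0.0184 in their deviations from the group means, so the numbers were not taken as pairs. A replicate block on the shared numbers called 33 genes lower, and gave a median of −0.21 for the auxiliary enzymes, with −0.021 for Acsl5, −0.0039 for Slc25a20, −0.079 for Acadvl, −0.034 for Echs1, −0.048 for Hadh and −0.14 for Decr1. A replicate block on the leading number called 6 genes higher and 33 lower, and gave a median of 0.18 for acyl-CoA synthesis, with −0.06 for Acsl5, −0.0048 for Slc25a20, −0.033 for Acadvl, −0.0062 for Echs1 and −0.064 for Decr1.

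With 3 mice a group, an exact permutation test of a single gene cannot give a p below 0.1. The direct repeat had 0 exact matches among the windows of the list and 0.0396% among all windows.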

Other observations

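The citric acid cycle, which takes up the acetyl-CoA made by oxidation, held 17 tested genes with a median log2 fold change of 0.094, and 0 were called in either direction by edgeR, while 0 that were higher and 1 that was lower had an unadjusted p under 0.05, and DESeq2 called 0. Cs, the citrate synthase, had 40.1, 37.3 and 31.3 CPM in knockout livers, against 46.1, 45.0 and 48.9 CPM in wild-type livers. Every knockout library lay below every wild-type library (adjusted p = 0.326, edgeR). Sdha, the flavoprotein subunit of succinate dehydrogenase, had 237, 242 and 262 CPM in knockout livers, against 194, 195 and 205 CPM in wild-type livers, with the groups separate in the other direction (adjusted p = 0.399, edgeR). The 16 genes of peroxisome biogenesis had a median of 0.038 and 0 calls by edgeR or DESeq2. At an unadjusted p under 0.05 in edgeR, 0 were higher (6.7% of all genes) and 1 was lower (6.76%). Separate groups were found in 3 higher genes (10.2% of all genes) and 1 lower gene (9.08%). Pex16, which acts in assembly of the peroxisomal membrane, had 34.3, 27.5 and 27.8 CPM in knockout livers, against 48.8, 35.3 and 42.2 CPM in wild-type livers, and the groups did not overlap (adjusted p = 0.253, edgeR). Cs, Sdha and Pex16 were chosen after their values were seen.

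Angptl4, a secreted inhibitor of lipoprotein lipase that PPARα induces, had 25.6, 20.0 and 33.5 CPM in knockout livers, against 68.8, 28.7 and 24.8 CPM in wild-type livers. Its highest value was in the wild-type library 7-2, the library in which Acaa1a, Acaa1b and Ehhadh were also highest. That library was the highest of its group in 26 of the 34 genes. Cpt1a, at 82.1 CPM, and Ppara, at 45.0 CPM, had their lowest values of the 6 libraries there. A reason for these levels was not tested. Angptl4 too was chosen after its values were seen.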
